A study of Mus musculus with 8 samples.

Results

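Coding genes of mouse chromosome 1 were compared between KO and WT embryonic stem cells (mESCs, cultured pluripotent cells of the early embryo), because the KO libraries held more RNA from this chromosome. The members were the genes that GENCODE M21 types as protein coding and places on chromosome 1, with a mean over all 8 libraries of at least 10 CPM (a gene's counts scaled to the same total in every library). Of 469 such genes, 22 were left out by name because they belong to other gene groups, which left 447 of the 43309 rows of the count table. The cells were of the J1 line of strain 129SV, grown without feeders in medium with serum. The WT cells carried *Zbtb24* as 2lox/+ and the KO cells as 1lox/1lox, so the WT cells also had 1 modified allele. Each genotype was sampled as 1000 cells with 10 PCR cycles, or as 100 cells with 18 cycles, so that input and amplification cannot be told apart, and each of the 4 groups held 2 libraries, made with the SMARTer Ultra Low kit. The cells of a genotype came from derived clones, and which clone gave which library is not given in the sources used here, so that a feature of the clones and an effect of the knockout cannot be told apart. *Zbtb24* encodes a zinc finger protein that is mutated in an immunodeficiency syndrome with unstable centromeres.

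A cell with an added copy of a chromosome usually makes more RNA from most of its genes, roughly in step with the number of copies. Some genes stay near their usual level because their RNA is regulated by its own product or by limiting factors, and others go further because they also respond to the state of the cell. Cultured mESCs are known to gain chromosomes. Copy number was not measured in these libraries, and 3 to 2, the RNA ratio that 3 copies against 2 would give (a log2 ratio of 0.58), served here as a reference line only.

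The library totals ran from 9666985 to 16686525 counts, and a member had a median of 606.5 counts in a library and never fewer than 39. Markers of mESCs summed to between 6008 and 7027 CPM in every library, but single markers differed between genotypes in both directions. Of the 8 markers 4 were called higher in KO at 1000 cells and 3 at 100 cells. At 1000 cells *Nanog* had 295 and 293 CPM in WT and 616 and 597 in KO. *Zfp42* had 780 and 719 CPM in WT and 610 and 572 in KO. In the KO libraries of 100 cells, 6 of 6 myelin markers were called higher and summed to 249 to 256 CPM, against 44.7 to 52.2 CPM in the other 6 libraries, and *Mbp*, the myelin basic protein, stood at 99.8 and 103 CPM there against at most 2.61 CPM elsewhere. At 1000 cells 1 of the 6 was called higher in KO, and *Mobp* had 17.2 and 15.7 CPM in KO against 6.11 and 6.38 in WT. Astrocyte markers summed to 199 to 207 CPM in the KO libraries of 100 cells, 132 to 151 CPM in those of 1000 cells, and 76.9 to 92.1 CPM in the WT libraries. Most of each sum was *Aldoc*, with 126 and 106 CPM in KO against 66.4 and 48.1 in WT at 1000 cells. Of the 5 markers 4 were called higher in KO at 100 cells and 1 at 1000 cells. The part of such RNA in the ratios at 100 cells was not tested. Libraries are called KO or WT here as they were labelled, because *Zbtb24* itself had 494 to 545 counts in the libraries labelled KO and 197 to 269 in those labelled WT. Counts over the whole gene do not show whether the deleted segment was transcribed, and that direction goes against the label if read as a loss.

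Chromosome 1 stood higher in the KO libraries at both inputs, with a median ratio of 1.47-fold at 1000 cells and 1.38-fold at 100 cells. Its 447 members took 4.26% and 4.35% of all counts in the WT libraries of 1000 cells and 5.65% and 5.71% in the KO libraries, and at 100 cells they took 4.06% and 4.11% in WT and 5.58% and 5.54% in KO. Every KO library lay above every WT library. In bulk libraries, more cells with such a shift and more RNA in each of them cannot be told apart. The median KO/WT ratio of the members was 1.47-fold at 1000 cells (log2 0.55, quartiles 0.29 and 0.80) and 1.38-fold at 100 cells (log2 0.47, quartiles 0.19 and 0.71). The 7341 coding genes of chromosomes 2 to 19 at the same level had medians of −0.01 (log2, 1000 cells) and −0.07 (100 cells), so members stood 1.48-fold and 1.45-fold above the other autosomes. No other autosome had a median log2 ratio outside −0.25 to 0.10 at 1000 cells or −0.26 to 0.02 at 100 cells, and the lowest at both was chromosome 8. The members were chosen by chromosome and mean CPM, but the chromosome was taken up for its KO/WT ratio in these same libraries, so the medians are a description and no test is given of them.

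**Figure D1:**
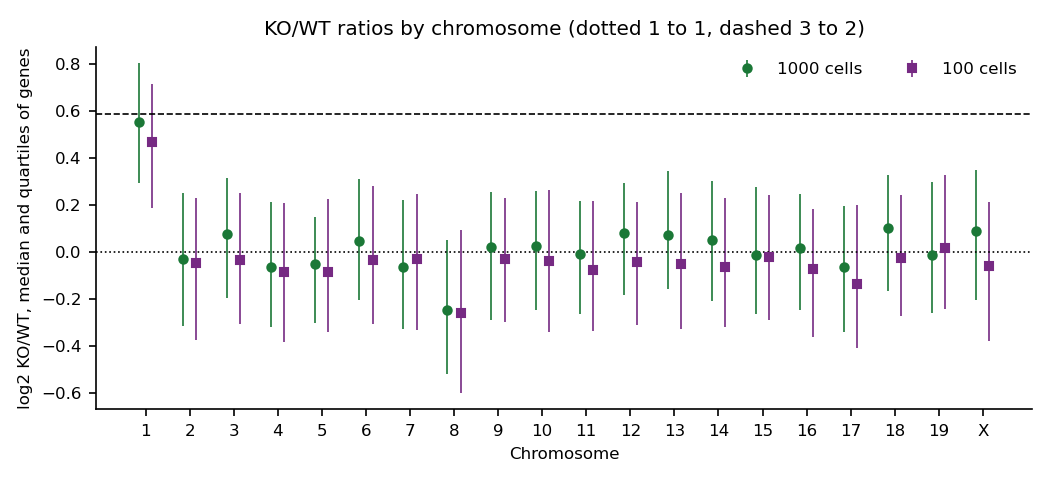
Log2 KO/WT ratio by chromosome (autosomes and X) for coding genes of at least 10 CPM, as median (circles, 1000 cells, and squares, 100 cells) with lines to the quartiles. Chromosome 1, at 0.55 and 0.47, is the only one near the dashed 3 to 2 line, and the quartiles of the others span the dotted 1 to 1 line.

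The shift was seen gene by gene in most members. At 1000 cells, 358 members were called higher in KO by edgeR's quasi-likelihood test (adjusted p of at most 0.05 over all 16816 genes tested), where 20.9% of all tested genes were called higher, and 16 were called lower, where the share was 20.6%. At 100 cells 255 were called higher (17.6% of all tested genes) and 13 lower (16.6%). All 4 KO libraries lay above all 4 WT libraries for 293 members, against 14.1% of all tested genes, and below them for 8, against 13.9%. The width of the distribution was much like elsewhere in the genome: the interquartile range of the log2 ratio was 0.51 over members and 0.53 over the other autosomes at 1000 cells, and 0.53 against 0.58 at 100 cells.

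Each member was then tested against a ratio of 3 to 2 instead of 1 to 1. A member was called under where it was below 3 to 2 past the threshold, over where it was above it, following where it was higher than 1 to 1 and not called against 3 to 2, and undetermined otherwise. At 1000 cells 188 members (42.1%) followed, 139 (31.1%) were under, 117 (26.2%) were over and 3 were undetermined. Under did not always mean level with WT: of the 139, 53 were still called higher than 1 to 1. Another 70 were not called against 1 to 1, and 16 were called lower. The split between under and over moved with the scaling. With column totals alone, 40.04% of members were under and 17.9% over at 1000 cells. With GC and length offsets these shares were 36.7% and 23.7%, and with TMM without chromosome 1 they were 29.3% and 28.6%. At 100 cells 208 (46.5%) followed, 130 (29.1%) were under, 46 (10.3%) were over and 63 were undetermined. Over all tested genes the 3 to 2 test called 58.9% under and 3.81% over at 1000 cells, and 50.3% under and 6.86% over at 100 cells, since most genes lie on chromosomes near 1 to 1. Because so many genes were called, an unadjusted p of up to 0.0313 passed at 1000 cells and up to 0.0286 at 100 cells. The share of members called away from 3 to 2 was 57.3% at 1000 cells and 39.4% at 100 cells, beside 56.1% and 36.8% of the genes of chromosomes 2 to 19 that were called away from 1 to 1.

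The class of a member carried over in part from one input to the other. The 139 members under at 1000 cells had a median log2 ratio of 0.24 at 100 cells, the 188 following members 0.47 and the 117 over members 0.71. At both inputs 94 members followed, 70 were under and 27 were over. The 94 came from the 188 that followed at 1000 cells, a share near the 46.5% of all members that followed at 100 cells, so that class carried over little. The 70 came from 139 under, beside 29.1% of all members under at 100 cells, and the 27 from 117 over, beside 10.3%. Of the 70 members under at both, 8 were called lower in KO than in WT at both inputs, and 40 were called against 1 to 1 at neither. Another count, of members with no overlap between libraries, found 9 of the 70 that had all 4 KO libraries above all 4 WT libraries. Over all tested genes 14.1% were placed in this way, and among all members 293 were. The 70 were picked for a low ratio, so this count says nothing particular about them. The shares at 100 cells depended on single libraries. Without replicate 1 or replicate 2 of KO, 23.5% and 23.9% of members were called higher in place of 57.0%, 11.0% and 9.62% were under, and 18.8% followed in each case. The share over was 23.7% without replicate 2 and 19.7% without replicate 1 of WT, and 4.70% and 5.15% without replicate 1 and replicate 2 of KO.

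**Figure D2:**
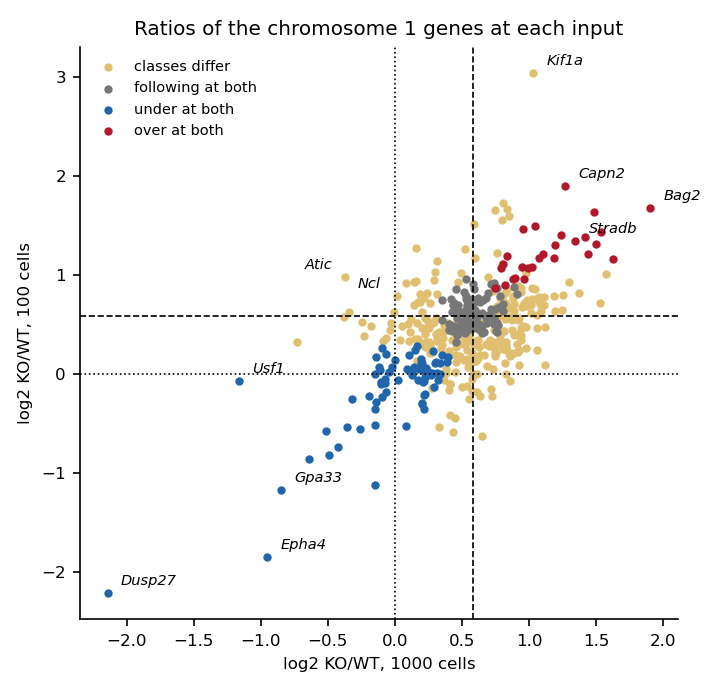
Log2 KO/WT ratio of the members at 1000 cells (x) and at 100 cells (y), with dotted lines at 1 to 1 and dashed lines at 3 to 2. Points are coloured by class where it was the same at both inputs, and share 1 other colour where it differed. The 1 member undetermined at both inputs is not drawn. The cloud centres near 0.55 and 0.47, *Dusp27* lies at −2.14 and −2.21, *Bag2* at 1.91 and 1.68, and *Kif1a* at 1.03 and 3.04.

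The lowest ratio at both inputs was that of *Dusp27*, of the dual specificity phosphatase family, and its neighbour *Gpa33*, a surface antigen of gut epithelium, was low as well. The level of *Dusp27*, in CPM after TMM scaling, was 24.1 and 22.0 in the WT libraries of 1000 cells and 5.12 and 5.33 in KO, and 21.6 and 35.2 in WT and 5.52 and 7.17 in KO at 100 cells. The groups lay far apart at both inputs, and the log2 ratio was −2.14 ± 0.15 (SE, n = 2 libraries a group here and throughout) at 1000 cells and −2.21 ± 0.25 at 100 cells, with edgeR adjusted p of 1.31e-12 and 0.000345. *Gpa33* had 21.3 and 18.5 in WT against 10.4 and 11.7 in KO at 1000 cells, and 25.1 and 22.1 against 10.7 and 10.8 at 100 cells (log2 −0.85 ± 0.13 and −1.17 ± 0.16). Both genes were called lower in KO at both inputs, on a chromosome where the typical member was called higher. They are transcribed away from each other with starts 2316 bases apart, *Dusp27* on the minus strand (chr1:166098148-166127922, GRCm38) and *Gpa33* on the plus strand (chr1:166130238-166166510). Upstream of them on the map *Pou2f1*, which encodes the octamer-binding factor Oct-1, was under at both inputs too (log2 −0.15 ± 0.09 and −0.51 ± 0.20), and these 3 genes formed the longest run of members below 1 to 1 at 1000 cells.

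Promoter windows (250 bases before to 50 after a start, RefSeq, GRCm38.p6) were found for 372 of the 447 members. Those of *Dusp27* (chr1:166127849-166128148, minus strand) and *Gpa33* (chr1:166129971-166130270, plus strand) are shown because these neighbours were both called lower at both inputs, and that of *Bag2* (chr1:33757701-33758000, minus strand) because it had the highest ratio at 1000 cells, with CG pairs in capitals.
*Dusp27*: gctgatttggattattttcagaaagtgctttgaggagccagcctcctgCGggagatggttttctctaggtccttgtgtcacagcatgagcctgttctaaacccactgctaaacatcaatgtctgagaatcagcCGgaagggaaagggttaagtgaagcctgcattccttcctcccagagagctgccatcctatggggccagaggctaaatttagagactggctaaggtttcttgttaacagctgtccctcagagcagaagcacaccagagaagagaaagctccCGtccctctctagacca
*Gpa33*: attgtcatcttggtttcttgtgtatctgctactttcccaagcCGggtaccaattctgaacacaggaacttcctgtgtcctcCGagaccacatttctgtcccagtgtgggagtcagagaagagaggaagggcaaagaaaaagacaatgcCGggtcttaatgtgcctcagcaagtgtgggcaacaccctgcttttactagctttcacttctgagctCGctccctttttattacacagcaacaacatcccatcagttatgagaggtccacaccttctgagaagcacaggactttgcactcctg
*Bag2*: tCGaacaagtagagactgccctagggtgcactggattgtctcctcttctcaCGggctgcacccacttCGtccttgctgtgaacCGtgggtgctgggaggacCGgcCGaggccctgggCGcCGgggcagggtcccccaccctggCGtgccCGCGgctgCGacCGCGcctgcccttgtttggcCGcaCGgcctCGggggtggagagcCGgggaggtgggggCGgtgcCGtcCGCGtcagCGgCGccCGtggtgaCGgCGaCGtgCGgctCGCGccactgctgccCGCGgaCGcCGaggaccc
The *Dusp27* and *Gpa33* windows held 3 and 4 CG pairs, and their ratio of observed to expected CG pairs was 0.162 and 0.234, while the *Bag2* window held 35 pairs at a ratio of 0.870. Across the classes CG content was close: at 1000 cells the median ratio was 0.808 in the under class, 0.810 in the following and 0.845 in the over class, and the share of windows below 0.4 was 6.96%, 7.50% and 6.38%. The letters CCAGGACCT, which hold the core of the site known for ZBTB24 (searched on both strands, where it reads AGGTCCTGG), were in 0 of 372 member windows, in 0.427% of 5850 windows of coding genes of chromosomes 2 to 19 at the same level, and in 0.520% of all 18852 windows.

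The other named members under at both inputs had varied roles. *Epha4*, an ephrin receptor, had 34.4 and 39.2 CPM in WT and 17.9 and 19.9 in KO at 1000 cells, and 34.0 and 24.1 and 8.80 and 7.78 at 100 cells. It was called lower at both, and its log2 ratio was further down at 100 cells (−1.85 ± 0.21) than at 1000 cells (−0.95 ± 0.11, adjusted p of the difference 0.0251 by edgeR). *Sulf1*, a sulfatase that trims heparan sulfate outside the cell, was called lower at both (log2 −0.49 ± 0.10 and −0.82 ± 0.20), as were *Vwa3b* (−0.64 ± 0.13 and −0.86 ± 0.20) and *Prex2*, an activator of the small GTPase Rac (−0.42 ± 0.16 and −0.74 ± 0.24). The call of *Prex2* was lost with DESeq2 at both inputs and under other settings, and at 100 cells its log2 ratio was −0.37 without replicate 1 of WT. *Gsta3*, a glutathione transferase, was called lower at 100 cells only (−0.14 ± 0.12 and −1.12 ± 0.21). *Usf1*, a transcription factor that binds E-boxes, showed the reverse: its levels were 49.8 and 43.5 in WT and 25.0 and 17.1 in KO at 1000 cells, a log2 ratio of −1.16 ± 0.12, but 34.4 and 41.0 and 37.1 and 37.1 at 100 cells, where the groups overlapped (−0.07 ± 0.13). Exons of *Usf1* and *Tstd1* overlap on the same strand, so some reads of either could be left uncounted.

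A cluster of 4 members between 140 and 150 Mb, the only stretch of 10 Mb with fewer than 5 members, was under throughout at both inputs (median log2 −0.06 and −0.20), and it was noticed after the values were seen. *Glrx2*, a mitochondrial glutaredoxin, was called lower at both inputs: it had 29.7 and 31.5 CPM in WT and 19.1 and 23.6 in KO at 1000 cells, and 27.1 and 33.9 and 20.4 and 22.0 at 100 cells (log2 −0.51 ± 0.11 and −0.57 ± 0.15). *Uchl5*, a deubiquitinase of the proteasome, was almost level across all 8 libraries, with 234 and 228 CPM in WT and 235 and 235 in KO at 1000 cells, and 208 and 259.9 and 234 and 229.9 at 100 cells (log2 0.02 ± 0.06 and −0.05 ± 0.12). *Trove2*, which encodes the RNA-binding protein Ro60, had log2 ratios of −0.15 ± 0.10 and −0.36 ± 0.15, and *Cdc73*, of the PAF complex that travels with RNA polymerase, 0.17 ± 0.07 and 0.28 ± 0.11. With *Zbtb41* and *Aspm* before them they made the longest run of under members at 1000 cells, 6 genes, and at 100 cells the longest run was also 6 genes, from *Raph1* to *Adam23*.

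The most abundant members included several that stayed near the WT level. *Ptma*, which encodes the small acidic nuclear protein prothymosin alpha, had 1639 and 1751 CPM in WT and 1764 and 1939 in KO at 1000 cells, and 1474 and 2101 and 1814 and 1943 at 100 cells. Its WT libraries of 100 cells bracketed both KO libraries, and the log2 ratio was 0.13 ± 0.06 and 0.03 ± 0.16. *Ncl*, the nucleolar protein nucleolin, was level at 1000 cells, with 3036 and 3095 in WT and 3017 and 3195 in KO (log2 0.02 ± 0.05), and higher in KO at 100 cells, with 2064 and 2753 and 4168 and 4406 (0.79 ± 0.15, adjusted p of the difference 0.00516 by edgeR). The *Ncl* gene hosts small nucleolar RNAs that overlap its annotation. *Hspd1* and *Hspe1* encode the subunits of the mitochondrial chaperonin and start back to back, yet *Hspd1* was under at 1000 cells (log2 0.11 ± 0.05) where *Hspe1* followed (0.55 ± 0.06). At 100 cells their ratios were 0.43 ± 0.12 and 0.38 ± 0.17. Their first exons overlap on opposite strands, and reads were counted without strand. *Eef1b2*, a translation elongation factor, followed at 1000 cells (0.47 ± 0.05) and was under at 100 cells (0.18 ± 0.11).

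The members furthest over 3 to 2 at both inputs had log2 ratios of up to 1.91. *Bag2*, a co-chaperone of Hsp70, had 8.85 and 7.36 CPM in WT and 32.5 and 29.0 in KO at 1000 cells, and 11.5 and 9.20 and 36.5 and 31.3 at 100 cells. The groups stood clear of each other, with log2 ratios of 1.91 ± 0.13 and 1.68 ± 0.17, and its adjusted p against 3 to 2 was 6.03e-10 and 0.000543 by edgeR. *Capn2*, a calcium-activated protease, rose by log2 1.27 ± 0.15 and 1.91 ± 0.21. *Rhbdd1*, a rhomboid protease of membranes, rose by 1.49 ± 0.16 and 1.64 ± 0.20, and *Arl8a*, a small GTPase that moves lysosomes, was 2.83-fold and 2.49-fold higher. *Gli2*, a transcription factor of Hedgehog signalling, rose by 1.42 ± 0.14 and 1.39 ± 0.21. *Efcab2* rose by 1.54 ± 0.13 and 1.43 ± 0.17. These genes and those under at both inputs were named for the size of their departure, so their p-values are descriptions.

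Other members sat on the 3 to 2 line at both inputs. *Tram1*, of the translocation channel of the endoplasmic reticulum, had 114 and 114 CPM in WT and 164 and 169 in KO at 1000 cells, and 107 and 125 and 179 and 178 at 100 cells (log2 0.54 ± 0.07 and 0.58 ± 0.11). *Lbr*, the lamin B receptor of the nuclear envelope, had 206 and 199.6 and 306 and 315 at 1000 cells, and 245 and 206 and 350.3 and 344 at 100 cells (0.61 ± 0.06 and 0.58 ± 0.12). *Ube2f*, a conjugating enzyme of the ubiquitin-like protein NEDD8, had 84.5 and 82.5 and 119 and 125, and 75.6 and 85.5 and 121 and 121 (0.54 ± 0.07 and 0.54 ± 0.11). In each the KO libraries lay above the WT libraries and close to each other. *Klhl12*, an adaptor of the cullin 3 ligase, *Sgo2a*, a guardian of centromeric cohesion, and the initiation factor *Eif5b* were the other members nearest to 3 to 2 above 50 CPM, with log2 ratios of 0.53 to 0.59 at 1000 cells and 0.54 to 0.64 at 100 cells. In all, 185 members at 1000 cells and 178 at 100 cells lay within 0.2 of 3 to 2 on the log2 scale, 93 of them at both.

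**Figure D3:**
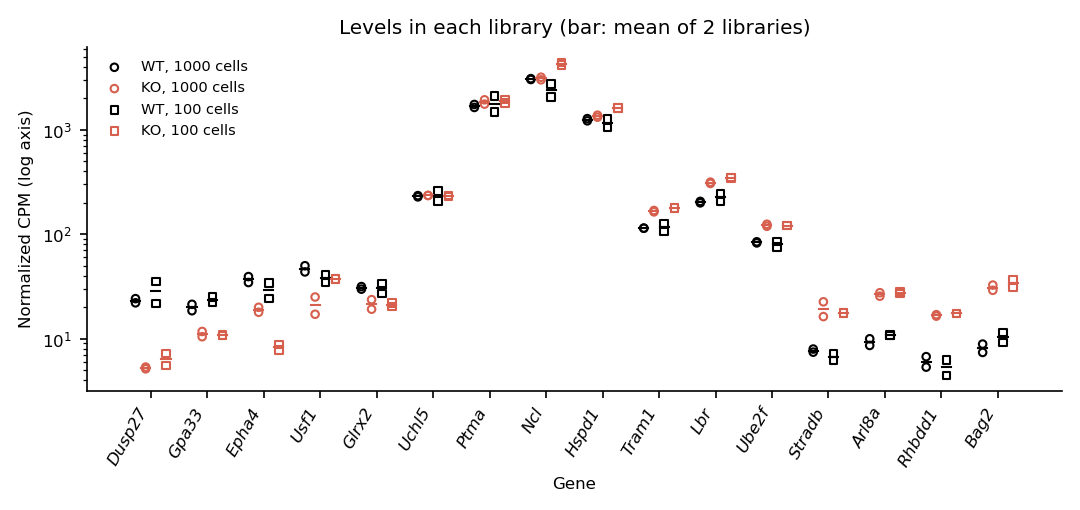
Level in each library, in CPM after TMM scaling on a log axis, for 16 members (circles, 1000 cells; squares, 100 cells; black, WT; red, KO; bars, mean of 2 libraries). From left to right the KO libraries lie below WT (*Dusp27* to *Glrx2*, except *Usf1* at 100 cells), near it or above it. Those near it are *Uchl5*, *Ptma*, and at 1000 cells *Ncl* and *Hspd1*. *Bag2* stands at 29.0 and 32.5 against 7.36 and 8.85 at 1000 cells.

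The first and last members had positive ratios: *Mrpl15*, a mitochondrial ribosomal protein (log2 0.53 ± 0.06 at 1000 cells and 0.32 ± 0.13 at 100 cells), and *Cr1l*, a regulator of complement (0.28 ± 0.09 and 0.24 ± 0.13). Both were called higher at 1000 cells and neither at 100 cells, and the call of *Cr1l* was lost under 5 alternative settings. In 19 of 20 stretches of 10 Mb, those with at least 5 members, the median log2 ratio was between 0.23 and 0.74 at 1000 cells and between 0.21 and 0.63 at 100 cells. The other stretch, from 140 to 150 Mb, was the one described above, with medians of −0.06 and −0.20. A running median of 21 members stayed between 0.31 and 0.86 at 1000 cells and between 0.20 and 0.77 at 100 cells. The longest run of members above 1 to 1 held 66 genes at 1000 cells, from *Thap4* to *Csrp1*, and 41 at 100 cells, from *Pign* to *Snrpe*. Members under and over were therefore mixed along the map, and no run below 1 to 1 was longer than 3 genes at either input.

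**Figure D4:**
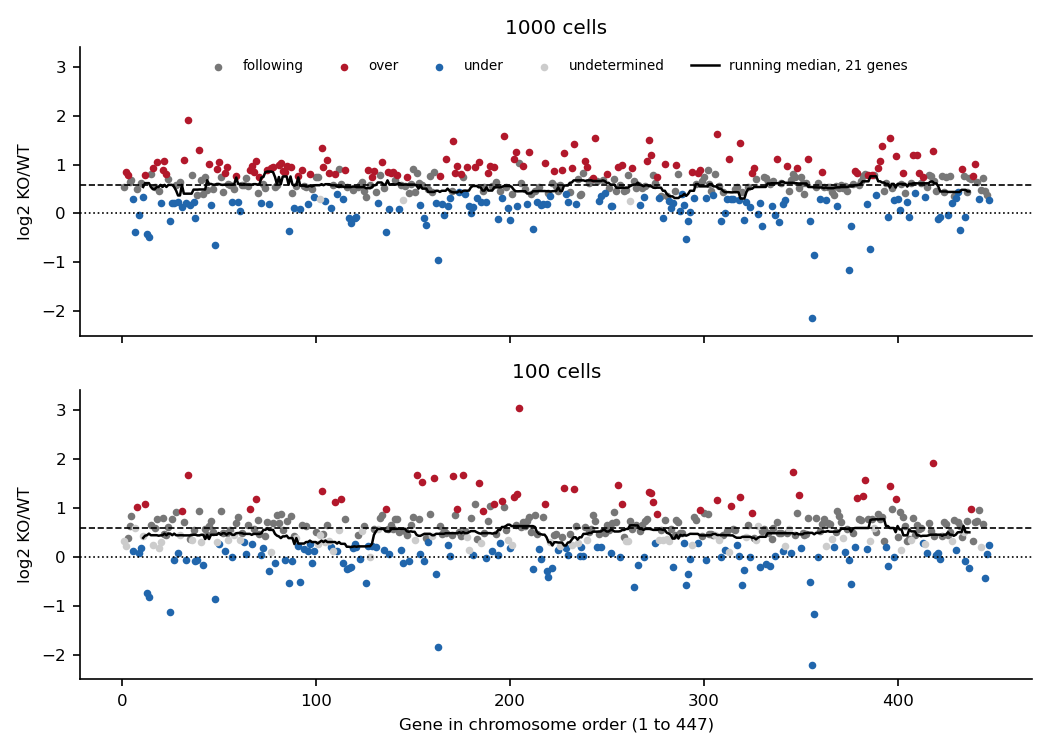
Log2 KO/WT ratio of each member in chromosome order at 1000 cells (top) and 100 cells (bottom), coloured by class, with the running median of 21 members in black, 1 to 1 dotted and 3 to 2 dashed. The black line stays between 0.31 and 0.86 in the top panel and between 0.20 and 0.77 in the bottom panel, above 1 to 1 throughout.

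The ratios of neighbours went little together. Over the 446 pairs of members next to each other, the Spearman coefficient of the log2 ratios was 0.04 at 1000 cells and −0.05 at 100 cells, where the 7323 pairs on chromosomes 2 to 19 had 0.15 and 0.07. Among 34 pairs of members that start back to back within 1000 bases it was −0.09 and 0.10, beside 0.21 and 0.10 over 502 such pairs on chromosomes 2 to 19. At 1000 cells 16 of these 34 pairs fell in 1 class, and in 5 pairs 1 gene was under and the other over. These coefficients are descriptions over genes that share libraries.

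*Stradb* and *Trak2* show how far such a pair could part, and *Uchl5* and *Trove2* a pair that stayed low together, and both were chosen after their values were seen. *Stradb*, a pseudokinase partner of the kinase LKB1, had 7.40 and 7.93 CPM in WT and 16.2 and 22.5 in KO at 1000 cells, and 6.13 and 7.16 and 17.5 and 17.5 at 100 cells (log2 1.35 ± 0.16 and 1.35 ± 0.18, over at both). *Trak2*, an adaptor that moves mitochondria, had 14.1 and 18.5 and 18.8 and 20.8, and 12.7 and 12.4 and 15.7 and 19.7 (0.30 ± 0.13 and 0.45 ± 0.18, called against neither line). Their starts lie 92 bases apart, and 1 promoter window holds both, with that of *Trak2* at its base 159; likewise the window of *Uchl5* holds the start of *Trove2*, 204 bases away, at its base 41. The windows of *Stradb* (chr1:58973272-58973571) and *Uchl5* (chr1:143777028-143777327), both on the plus strand of GRCm38.p6, are printed with CG pairs in capitals.
*Stradb*: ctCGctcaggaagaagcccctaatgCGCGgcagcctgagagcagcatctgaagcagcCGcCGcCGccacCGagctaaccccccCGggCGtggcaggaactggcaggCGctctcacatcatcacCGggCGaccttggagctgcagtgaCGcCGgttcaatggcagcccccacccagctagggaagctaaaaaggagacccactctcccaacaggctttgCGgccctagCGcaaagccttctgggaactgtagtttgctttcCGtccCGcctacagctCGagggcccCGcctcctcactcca
*Uchl5*: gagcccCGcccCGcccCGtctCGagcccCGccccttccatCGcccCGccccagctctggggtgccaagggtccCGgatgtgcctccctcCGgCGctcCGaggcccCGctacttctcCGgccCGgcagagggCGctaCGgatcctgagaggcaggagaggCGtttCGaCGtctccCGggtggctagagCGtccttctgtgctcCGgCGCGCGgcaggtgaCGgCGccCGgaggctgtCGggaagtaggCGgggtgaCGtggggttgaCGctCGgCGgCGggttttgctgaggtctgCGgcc
They held 20 and 36 CG pairs, at a ratio of observed to expected of 0.667 and 0.893. Both windows are thus rich in CG pairs, the one beside the pair that parted and the other beside the pair that stayed low.

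The ratio also went little with level or gene structure. In 3 equal sets of 149 members by mean CPM, the median log2 ratio, from low to high, came to 0.56, 0.54 and 0.55 at 1000 cells, and 0.50, 0.46 and 0.44 at 100 cells. Over the 447 members the Spearman coefficient of the ratio was 0.01 with mean CPM, −0.08 with transcript GC content and −0.07 with transcript length at 1000 cells, and −0.02, 0.11 and −0.03 at 100 cells. On chromosomes 2 to 19 the coefficient with GC content was −0.26 at 1000 cells and 0.01 at 100 cells. The coefficient between the ratios at both inputs, which share no library, was 0.52 over members and 0.52 over the 7341 genes of the other autosomes.

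The median ratio of the function lists ran from nucleolar genes, the lowest, to actin genes, the highest, at 1000 cells. Of 11 members that build ribosomes in the nucleolus, 8 were under, 2 followed and 1 was over at 1000 cells, where 31.1% of all members were under and 26.2% over. The median log2 ratio was 0.24 against 0.55 over all members. At 100 cells 5 of 11 were under, beside 29.1% of all members, with a median of 0.31 against 0.47. Among them *Nop58*, of the box C/D small nucleolar ribonucleoprotein, stood at 0.11 ± 0.06 and 0.20 ± 0.11, and *Imp4*, of the small subunit processome, at −0.10 ± 0.07 and −0.08 ± 0.10, both under at both inputs. *Wdr75* was the 1 member over at 1000 cells (0.74 ± 0.06). Of 15 members that shape actin and the cell, 7 were over at 1000 cells, beside 26.2% of all members, 7 followed and 1 was under, with a median of 0.73. At 100 cells 10 followed and 1 was over, beside 10.3% of all members, and the median was 0.63. *Enah*, which promotes actin filament growth, was over at 1000 cells (0.75 ± 0.06) and under at 100 cells (0.28 ± 0.11, adjusted p of the difference 0.0456 by edgeR).

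The 8 members among transcription factors of mESCs had median log2 ratios of 0.36 (1000 cells) and 0.20 (100 cells). Of these, 3 and 4 were under, beside 31.1% and 29.1% of all members, and 2 were over at 1000 cells, among them *Gli2*, over at both inputs. *Zfp281* was under at both (0.22 ± 0.07 and −0.21 ± 0.10), and so was *Gbx2* (−0.11 ± 0.14 and 0.04 ± 0.17), while *Tfcp2l1* was over at 1000 cells (0.92 ± 0.08) and undetermined at 100 cells. Of 24 members of the chromatin and transcription machinery 10 were under and 4 over at 1000 cells, where 26.2% of all members were over, and 7 were under at 100 cells. The histone demethylase *Kdm5b* followed at both inputs (0.56 ± 0.06 and 0.73 ± 0.10). Of 28 members of mitosis and genome maintenance 12 were under, 11 followed and 5 were over at 1000 cells, and 6 were under and 19 followed at 100 cells. Of 16 members of splicing and mRNA metabolism 7 were under and 6 over at 1000 cells, with the splicing factor *Sf3b1* at 0.94 ± 0.05 and the RNA-binding *Hnrnpu* at −0.07 ± 0.07, and 5 were under at 100 cells. Of 19 members of mitochondrial translation and import 13 followed at 1000 cells and 10 at 100 cells, beside 42.1% and 46.5% of all members.

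Protein breakdown, transport and metabolism lay near the chromosome median. The 23 members of the ubiquitin and proteasome list had median log2 ratios of 0.57 and 0.49, with 5 under and 6 over at 1000 cells. The 24 members of vesicle transport had 0.58 and 0.46, with 7 under and 9 over, among them *Lypla1*, a depalmitoylating enzyme, at 0.85 ± 0.07 and 0.22 ± 0.16. The 25 metabolic enzymes had 0.52 and 0.47, with 10 under and 7 over at 1000 cells, beside 31.1% and 26.2% of all members, and 7 under at 100 cells. *Prdx6*, a peroxiredoxin, was under at 1000 cells (0.15 ± 0.05). Receptors, ligands and matrix genes spread widely, from *Epha4* at −0.95 to *Fzd7*, a Wnt receptor, at 1.09, and *Fn1*, fibronectin, was over at 1000 cells (0.84 ± 0.06) and followed at 100 cells (0.57 ± 0.12). Many of these lists are small, and they were written with earlier results known, so a count near the share over all members says nothing particular about a list.

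**Figure D5:**
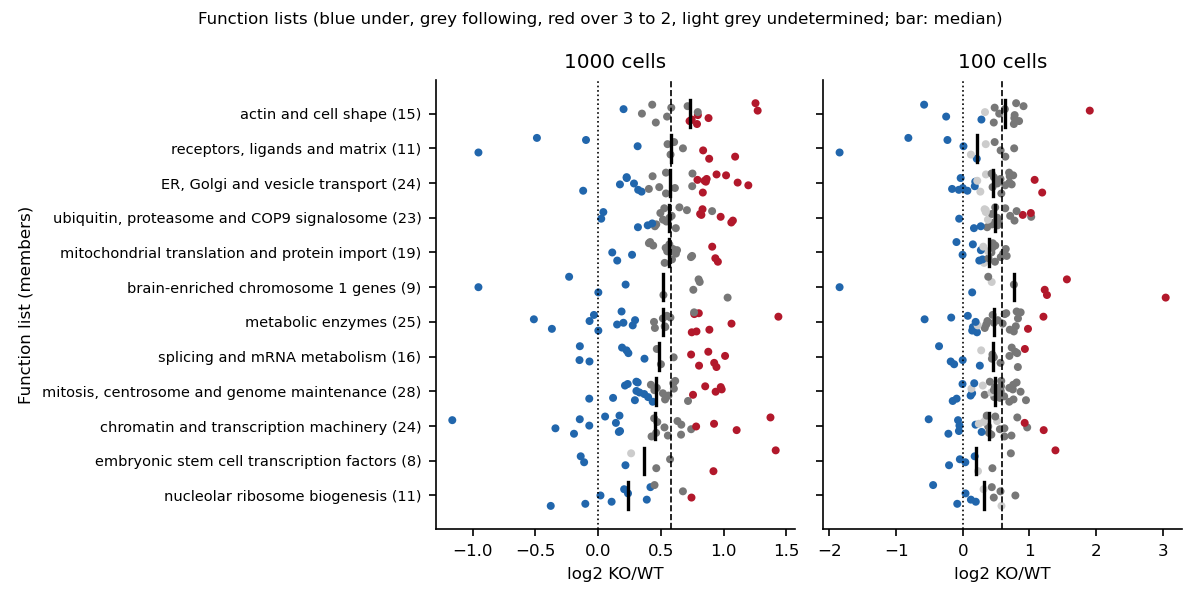
Log2 KO/WT ratio of the members of 12 function lists at 1000 cells (left) and 100 cells (right), a point for each gene, a black bar at the list's median, 1 to 1 dotted and 3 to 2 dashed. The nucleolar list has its bar at 0.24 and the actin list at 0.73 in the left panel, and the brain-enriched list moves from 0.52 on the left to 0.77 on the right.

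Some members changed class with the input. The KO/WT ratio differed between inputs (edgeR interaction over all 8 libraries) for 94 members, with a higher ratio at 100 cells for 41, where 9.28% of all tested genes were called, and a lower one for 53, where the share was 7.05%. *Kif1a*, a motor that carries synaptic vesicle precursors in neurons, had 4.68 and 4.25 CPM in WT and 10.8 and 7.68 in KO at 1000 cells, and 4.05 and 3.77 and 34.5 and 31.9 at 100 cells (log2 1.03 ± 0.20 and 3.04 ± 0.17). Of 8 neuron markers 5 were called higher in KO at 100 cells and 2 at 1000 cells. *Snap25* had 81.5 and 75.0 CPM in the KO libraries of 100 cells against at most 2.95 in the other 6 libraries. By contrast *Stmn2* had 333 and 359 CPM in KO at 100 cells against 484 and 480 in WT. The 8 markers summed to 725 to 745 CPM in KO and 726.7 to 761.6 in WT at 100 cells, and their part in the ratio of *Kif1a* was not tested. Of 9 brain-enriched members 0 were over at 1000 cells and 4 at 100 cells, when *Atp1b1*, a subunit of the sodium pump, *Pea15a* and *Igsf8* joined *Kif1a* at log2 ratios of 1.26, 1.23 and 1.56. Of the same list *Epha4* lay further down at 100 cells, as given above, and *Glul*, the glutamine synthetase, was under at both inputs (0.00 and 0.14). Leaving out the brain-enriched list moved the share of members over from 10.3% to 9.59% at 100 cells.

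*Atic*, an enzyme of purine synthesis, had 171 and 184 CPM in WT and 136 and 139 in KO at 1000 cells, but 68.2 and 81.1 and 153 and 151 at 100 cells, so it was called lower at one input (log2 −0.37 ± 0.07) and higher at the other (0.98 ± 0.11). Most of that lay in the WT libraries, whose level was much lower at 100 cells. *Btg2*, an antiproliferative gene, went the other way, with 14.7 and 16.8 and 25.0 and 24.2 at 1000 cells and 16.3 and 16.7 and 11.2 and 10.9 at 100 cells (0.65 ± 0.12 and −0.62 ± 0.16). *Abl2*, a kinase that acts on actin, did likewise (0.43 ± 0.08 and −0.58 ± 0.19), and *Capn10*, a calpain, was higher at 100 cells (1.28 ± 0.13) and not called at 1000 cells (0.16 ± 0.13). The lower calls at 100 cells were lost with DESeq2 for *Btg2*, and for *Abl2* with limma-voom, with column totals alone and with either other count filter. In the comparison of 100 against 1000 cells within a genotype, 0 members were called higher and 8 lower in WT by edgeR, where 0.149% and 0.678% of all tested genes were, with 69 at an unadjusted p under 0.05. In KO, 97 were called higher and 163 lower, where the shares were 27.3% and 24.8%. The replicates of WT at 100 cells differed most, with an SD of the log2 ratio between them of 0.32 over members, against 0.12 to 0.15 in the other groups.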

How the data were processed

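RNA of 8 libraries was measured by sequencing. Per the authors' methods and processing notes, reads were called with CASAVA 1.8.2, aligned to mm10 with TopHat2 2.0.10 (Bowtie2 2.1.0) and counted over GENCODE M4 genes with HTSeq 0.6.1, without strand, and the deposited values are raw counts per gene. Gene type, position, GC content and length came from GENCODE M21 (GRCm38), to which 42425 IDs (98.0%) matched.

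All 16816 genes that reached 10 counts in any library entered edgeR 4.0.16 (R 4.3.3) and its quasi-likelihood test after TMM scaling, separately in the 4 libraries of each input, and calls were made at 0.05 on p-values adjusted by Benjamini-Hochberg across those genes. The 3 to 2 test moved the null to a log2 ratio of 0.58 through an offset. The interaction used all 8 libraries, and the scripts were tested on simulated data. Levels are CPM after TMM scaling over 8 libraries and are not corrected for length. Totals of 9666985 to 16686525 counts gave a median SE of a member's log2 ratio of 0.09 at 1000 cells and 0.13 at 100 cells, and with 2 libraries a group p-values measure the spread between libraries, which may be technical. All replicates differed by more than sampling noise (chi-square per degree of freedom of 1.90 to 15.9). Named genes were the 8 furthest under and the 8 furthest over 3 to 2 at both inputs, the 6 nearest to it above 50 CPM, the 4 most abundant, the most abundant of each of 12 lists, the first and last member, the 3 strongest interactions each way, and *Hspd1* and *Hspe1*, and others are named as examples of lists or as chosen after their values were seen. Members and lists were chosen with earlier results of these data known. The 22 genes left out by name were not analysed here. At the level limit, *Carf* (10.1 CPM), *Zbtb37* (10.2) and *Chml* (10.2) were just inside and *Stat4* (9.98) and *Gpc1* (9.85) just outside. Some genes that these rules name are not reported here. Alternatives were DESeq2 1.42.0, limma-voom (limma 3.58.1), other scalings and filters, GC and length offsets, a replicate block, one fit of 8 libraries and leaving out each library.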

Additional observations from a re-analysis of the deposited data

Results flagged for a closer look

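The KO/WT ratio of 94 members differed between the inputs by the test of the difference itself (edgeR interaction, adjusted over all genes tested). The number rests on single libraries: leaving out 1 library gave 18 to 186 members, with 27 and 18 without replicate 1 and replicate 2 of KO at 100 cells, 44 and 22 without those of KO at 1000 cells, 148 and 186 without those of WT at 100 cells, and 22 and 35 without those of WT at 1000 cells.

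Among the named members, the difference (log2 ratio at 100 cells minus that at 1000 cells) was positive for *Kif1a* (2.06), *Atic* (1.39), *Capn10* (1.16), *Usf1* (1.13), *Ncl* (0.81), *Tuba4a* (0.65) and *Tpr* (0.54). It was negative for *Btg2* (−1.23), *Abl2* (−0.96), *Gsta3* (−0.94), *Epha4* (−0.84), *Lypla1* (−0.58), *Enah* (−0.42) and *Zfp281* (−0.38). The part of cell number, PCR cycles and other RNA in these differences was not tested.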

How the results depend on the processing

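The direction of the chromosome 1 median held under every alternative run. At 1000 cells the median log2 ratio of 0.55 became 0.54 with 10 counts in every library and with no count filter, 0.51 with GC and length offsets, 0.58 with TMM without chromosome 1, 0.47 with column totals alone, 0.57 for members of at least 50 CPM, 0.46 from mean CPM with a pseudocount of 0.5, and 0.56 relative to the median of the other autosomes, which moved the value at 100 cells from 0.47 to 0.53. Leaving out 1 library moved it within 0.54 to 0.56 (1000 cells) and 0.45 to 0.49 (100 cells).

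The share of members called lower, 3.58% at 1000 cells and 2.91% at 100 cells, was 1.45% and 0 of the members of at least 50 CPM, and 2.01% at 1000 cells in one fit of 8 libraries. That fit put 17.0% of members over 3 to 2 at each input, and 6.76% of the members of at least 50 CPM were over at 100 cells. Leaving out 1 library at 100 cells gave 23.5% to 76.7% called higher, 0.895% to 7.83% called lower, 9.62% to 41.8% under, 4.70% to 23.7% over and 18.8% to 39.1% following. Leaving out any 1 library gave 1 to 115 members called between inputs in WT in place of 8 (115 and 95 without a WT library of 100 cells, 1 without either of 1000 cells), and 18 to 186 members with a ratio that differed between inputs in place of 94. Leaving out 1 library at 1000 cells kept the shares called higher, called lower, under, over and following within 1.5 times the reported ones. For the named genes 76 values lost their call, 34 gained one, 8 turned direction and 1562 stayed on the same side of the threshold, called or not. The direction turned for *Ncl* at 1000 cells with GC and length offsets (log2 −0.070) and with column totals alone (−0.067), and for *Ptma* at 1000 cells with GC and length offsets (−0.013). Leaving out 1 library gave −0.017 to 0.33 for *Capn10* and −0.021 to 0.065 for *Ncl* at 1000 cells, and −0.20 to 0.31 for *Ptma* and −0.18 to 0.071 for *Usf1* at 100 cells. The cause was not tested.

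Replicate numbers did not pair the samples by design, and differences between replicates correlated by 0.15 and 0.17 between WT and KO at 1000 and 100 cells. With the replicate number as a block, 82.8% of members were called higher and 34.0% under at 1000 cells, 62.0% and 32.2% at 100 cells, 89 members differed between inputs, and 14 members were called between inputs in WT. The correlation was −0.12 between the inputs in WT, and a block with crossed numbers, added after seeing the data, called 22 members there.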

Other observations

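The rest of chromosome 1 was looked at in the same fit. The 228 coding genes with a mean of 1 to 10 CPM had a median log2 KO/WT ratio of 0.47 at 1000 cells (quartiles −0.06 and 0.93) and 0.51 at 100 cells (quartiles −0.09 and 1.25), against −0.04 and 0.11 over 3876 such genes of chromosomes 2 to 19. Of these 228 genes, 165 at 1000 cells and 164 at 100 cells had a positive ratio.

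The 175 chromosome 1 genes of another type, such as long noncoding RNAs and pseudogenes, with a mean of at least 1 CPM stood lower. Their medians were 0.19 (log2, 1000 cells) and −0.10 (100 cells), against −0.03 and −0.15 over 1009 such genes of chromosomes 2 to 19.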
